A study of Mus musculus with 178 samples.

Results

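Chemokine ligand genes were followed in whole blood of mice with oral tumors, once before and 3 times after the start of anti-PD-1 treatment. The 10 genes, Ccl2, Ccl3, Ccl4, Ccl5, Ccl6, Ccl9, Cxcl2, Cxcl9, Cxcl10 and Cxcl16, were taken by symbol from a count table of 55450 genes, and each symbol matched 1 row. The libraries came from 45 C57BL/6J mice of both sexes, 6 to 8 weeks old, with 4MOSC1 cells (a carcinogen-induced mouse oral squamous carcinoma line) placed in the tongue or buccal mucosa. All mice received the same treatment, anti-PD-1 clone RMP1-14, so that no untreated group was compared. Blood was drawn from behind the eye on Day 4, before treatment, and on Days 9, 17 and 24 during it, and mice were classed as responders or non-responders by RECIST. Responders gave 15, 15, 14 and 15 libraries on Days 4, 9, 17 and 24, and non-responders gave 29, 30, 30 and 30.

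Chemokines are small secreted proteins that guide leukocytes along gradients by binding receptors on the cell surface. Ccl2 draws monocytes through Ccr2, and Ccl3 and Ccl4 draw monocytes and T cells, Ccl3 in part through Ccr1. Ccl5, made by T and NK cells among others, binds Ccr1, and Ccl6 and Ccl9 are rodent ligands of Ccr1 made by myeloid cells. Cxcl2 recruits neutrophils through Cxcr2, Cxcl9 and Cxcl10 are interferon-induced ligands of Cxcr3, and Cxcl16 is a membrane-bound ligand of Cxcr6 that can be shed.

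Total counts per library ranged from 26058944 to 82208651, and haemoglobin genes took between 68.7% and 88% of them. Levels over time are given as log2 CPM (TMM-scaled CPM, counts relative to the library total, prior count 2), and levels are compared between genes as TPM, which is per length. Libraries are named by their titles (serial number, day and ear tag), and a mouse by its Day 4 library. The non-responder library 166_D24_7224 stood apart, with a TMM factor of 0.0848 against 0.266 for the next lowest. Library 104_D17_7203 is labelled as a responder although the other 3 libraries of that mouse are labelled as non-responders, and the mouse was kept among the latter. Moving the second library to the responders kept all 32 changes over time called below, and leaving out the first kept the 21 whose fit held it. All 45 mice had libraries of 1 sex by Xist and Y-linked genes. Ear tags had 3 digits in 27 mice (4 responders, 23 non-responders) and 4 digits in 18 mice (11 responders, 7 non-responders). The series of tags was treated as a possible batch. Blood was measured in bulk, so fewer cells of a type and less RNA per cell cannot be told apart.

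Most of these genes lie in a cluster on chromosome 11 of GRCm38 (GENCODE M21). Ccl2 stands at chr11:82035571-82037453, and Ccl5 (chr11:83525778-83530518), Ccl9 (chr11:83572919-83578636), Ccl6 (chr11:83587882-83593087), Ccl3 (chr11:83647844-83649355) and Ccl4 (chr11:83662584-83664683) follow each other. Cxcl16 lies apart on the same chromosome at chr11:70453983-70459984. Cxcl2 (chr5:90903871-90905938), Cxcl9 (chr5:92321347-92328079) and Cxcl10 (chr5:92346638-92348889) lie on chromosome 5. Art3 overlaps Cxcl10, Zmynd15 overlaps Cxcl16, E230016K23Rik overlaps Ccl6 and Gm17268 overlaps Ccl2, each on the opposite strand. Whether the counting used strand is not given in the sources used here, so reads of such pairs may not be told apart. The overlapping genes had low median counts (2 for Art3, 1 for Zmynd15, 8 for E230016K23Rik, 0 for Gm17268).

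Promoter sequences (250 bases before to 50 after the start, RefSeq, GRCm38.p6) were at hand for 6 of the 10 genes. Those of Cxcl2 (chr5:90903649-90903948, + strand), Ccl3 (chr11:83649329-83649628, - strand), Ccl9 (chr11:83578587-83578886, - strand), Ccl6 (chr11:83593038-83593337, - strand) and Cxcl10 (chr5:92348840-92349139, - strand) are shown, because these genes were called higher on Day 9 than on Day 4 in the non-responders below. Capitals mark matches, on either strand, to the AP-1 motif TGANTCA, the STAT motif TTCNNNGAA, the interferon motif GAAANNGAA or the kappa B motif, and, on the gene's own strand, to TATAAA. Matches that overlap each other appear as 1 run of capitals.
Cxcl2: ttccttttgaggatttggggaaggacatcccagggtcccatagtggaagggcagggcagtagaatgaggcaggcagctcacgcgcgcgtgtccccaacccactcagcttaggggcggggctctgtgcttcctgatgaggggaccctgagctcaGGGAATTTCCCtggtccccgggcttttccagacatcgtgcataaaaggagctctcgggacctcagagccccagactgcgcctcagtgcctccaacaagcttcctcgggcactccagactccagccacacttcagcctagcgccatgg
Ccl3: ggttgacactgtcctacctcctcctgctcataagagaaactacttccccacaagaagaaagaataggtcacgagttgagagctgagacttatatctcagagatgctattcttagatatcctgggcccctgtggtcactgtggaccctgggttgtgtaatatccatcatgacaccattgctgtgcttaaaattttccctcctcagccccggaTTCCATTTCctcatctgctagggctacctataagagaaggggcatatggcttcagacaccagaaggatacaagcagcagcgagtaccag
Ccl9: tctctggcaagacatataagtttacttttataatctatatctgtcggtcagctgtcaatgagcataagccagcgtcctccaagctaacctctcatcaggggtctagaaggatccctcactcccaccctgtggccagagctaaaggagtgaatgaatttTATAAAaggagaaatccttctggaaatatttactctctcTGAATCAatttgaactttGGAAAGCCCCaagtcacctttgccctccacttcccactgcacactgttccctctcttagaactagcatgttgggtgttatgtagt
Ccl6: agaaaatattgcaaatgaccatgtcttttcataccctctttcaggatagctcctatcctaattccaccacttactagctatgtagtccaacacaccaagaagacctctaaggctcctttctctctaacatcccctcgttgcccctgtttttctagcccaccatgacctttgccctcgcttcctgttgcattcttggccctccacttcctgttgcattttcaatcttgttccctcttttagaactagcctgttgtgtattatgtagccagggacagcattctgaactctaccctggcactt
Cxcl10: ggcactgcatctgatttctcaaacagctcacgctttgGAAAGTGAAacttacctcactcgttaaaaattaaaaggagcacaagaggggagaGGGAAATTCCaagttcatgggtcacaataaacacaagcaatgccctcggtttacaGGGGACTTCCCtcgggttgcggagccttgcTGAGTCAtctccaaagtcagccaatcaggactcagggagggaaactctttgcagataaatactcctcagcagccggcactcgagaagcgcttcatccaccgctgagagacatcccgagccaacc
The kappa B motif was in the promoters of Cxcl2, Ccl9 and Cxcl10 and in 8.46% of the 32851 promoters in the reference. An interferon motif was in those of Ccl3, Cxcl9 and Cxcl10, against 8.56% of all promoters, and an AP-1 motif in those of Ccl9, Cxcl9 and Cxcl10, against 7.81%. TATAAA was in those of Ccl9 and Cxcl9, against 8.32%. The STAT motif was in none of the 6, against 8.3% of all promoters, and the promoter of Ccl6 held none of the motifs searched. A match is a run of letters and does not show that a factor binds there.

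The ligand genes differed widely in level. Ccl5 had a median of 16.4 TPM (0.66 to 54.91 over the 178 libraries), Ccl6 14 TPM (1.16 to 44.41) and Ccl9 1.71 TPM (0.28 to 10.35), and these were counted in every library. The order of Ccl5 and Ccl6 is not fixed, since Ccl5 was higher in 127 of 178 libraries, whereas Ccl6 was above Ccl9, and Ccl9 above Ccl4, in all 178. Cxcl2 broke this order, with more TPM than Ccl9 in 7 libraries. Ccl4 had a median of 0.28 TPM, Ccl3 0.21 TPM, Cxcl10 0.09 TPM and Cxcl16 0.04 TPM, at median counts of 14, 13, 10 and 9 per library. Ccl4 was above Ccl3 in 113 libraries and equal in 9, so these neighbours are not separated by their spread. Cxcl2, Ccl2 and Cxcl9 had medians of 0.02, 0.01 and 0.01 TPM.

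**Figure D1:**
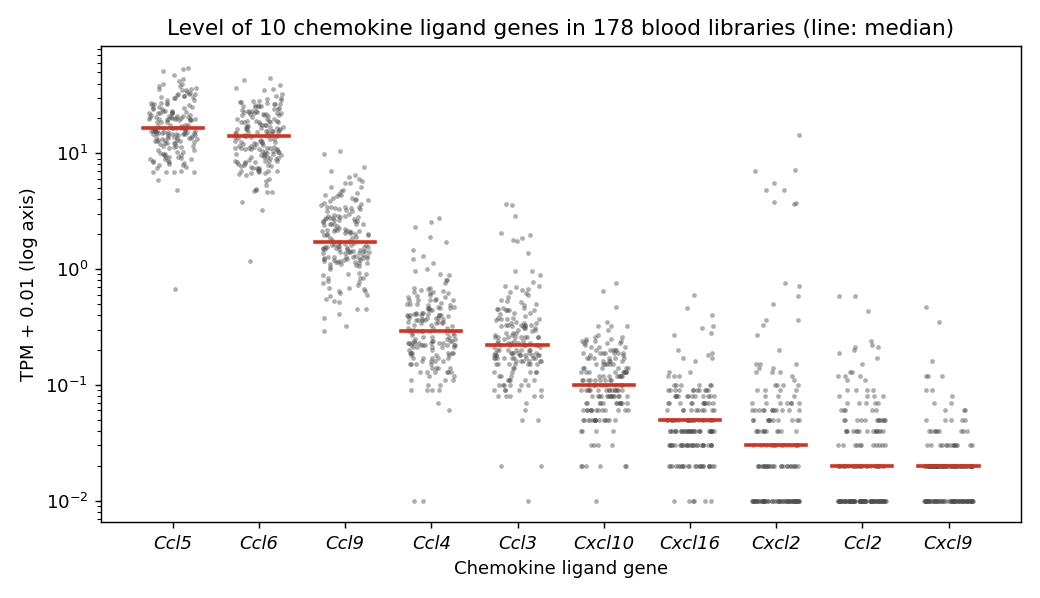
Level of each of the 10 ligand genes in the 178 libraries, as TPM plus 0.01 on a log axis, with the median as a line. Ccl5, Ccl6 and Ccl9 have the highest medians, and Cxcl2 reaches 14.48 TPM in 1 library although its median is 0.02 TPM.

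With both ear tag series together, Ccl2 and Cxcl9 were too low to measure in every comparison between the response groups within a day and between days within a group, meaning that the low-count filter of edgeR left them out. Ccl2 had a median of 1 count per library and none in 79 of 178 libraries, and Cxcl9 a median of 2 counts and none in 37. With no count, a library allows up to 3 counts, which is 0.0559 CPM at the median scaled library size (0.0183 to 0.713), for counting error only. Cxcl2 was left out of the fit of responders over time and of the Day 4, Day 17 and Day 24 comparisons, Cxcl16 was left out of the Day 4 comparison and Cxcl10 of the Day 24 comparison. On Day 9, Ccl2 had a median of 5.5 counts in non-responders (0 to 38) and 1 in responders (0 to 13). On the other days it had 13 counts or fewer. Cxcl9 reached 105 counts in 1 library, of a non-responder on Day 9, and had 13 or fewer on the other days. With every gene of at least 1 count kept, Ccl2 was higher on Day 9 than on Day 4 by a log2 fold change of 2.89 ± 0.42 (SE) in non-responders and 2.16 ± 0.60 in responders, with edgeR adjusted p of 4.01e-09 and 0.00825. For Cxcl9 these values were 2.59 ± 0.38 and 1.46 ± 0.50, with adjusted p of 1.09e-08 and 0.0397. These values rest on counts near 0 on Day 4.

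Between Day 4 and Day 9, 7 of the 8 members tested in non-responders rose, and 3 of 7 in responders. Over all genes, 23.3% of 13009 were called higher in non-responders and 13.5% of 12560 in responders. Cxcl2 and Cxcl16 did not pass the filter on the Day 4 libraries alone and entered these fits through the days on which they were higher, so their part in the counts was set in part by the filter. Of the 6 members that also passed on Day 4 alone (Ccl3, Ccl4, Ccl5, Ccl6, Ccl9 and Cxcl10), 5 rose in non-responders and 2 in responders. Their median log2 fold change was 0.82 in non-responders and 0.36 in responders, against -0.01 and 0.01 over all genes tested. On Day 17 the same number, 7 of 8, were called lower than on Day 9 in non-responders and 2 of 7 in responders, where 16.2% and 3.68% of all genes were called lower. Of the same 6, these were 5 and 2. Each of these values shares the Day 9 libraries with the rise, so a high Day 9 contributes to both.

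Among the members, Ccl9, the Ccr1 ligand of myeloid cells, changed in the most uniform way. In non-responders its log2 CPM was 2.02, 2.49 and 2.96 (lowest, median, highest) on Day 4 and 2.99, 3.59 and 4.42 on Day 9. All 29 mice with both days were higher on Day 9. The log2 fold change was 1.18 ± 0.09 (2.27-fold, edgeR adjusted p = 2.34e-21). In responders the values were 2.12, 2.86 and 3.51 on Day 4 and 3.01, 3.71 and 4.19 on Day 9. All 15 mice rose there, by a log2 fold change of 0.81 ± 0.12 (adjusted p = 1.34e-06). Within the mice with 3-digit tags the rise was 1.11 ± 0.11 in non-responders (adjusted p = 2.46e-15) and 0.78 ± 0.25 in 4 responders (adjusted p = 0.0669). Within those with 4-digit tags it was 1.42 ± 0.18 (adjusted p = 9.90e-06) and 0.82 ± 0.12 (adjusted p = 1.68e-05).

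By Day 17, Ccl9 had fallen by 0.91 ± 0.09 on the log2 scale in non-responders (adjusted p = 3.36e-14) and by 0.92 ± 0.12 in responders (adjusted p = 6.94e-07), and it was lower in 29 of 30 and 14 of 14 mice. In non-responders Day 17 was still above Day 4 by 0.27 ± 0.09 (adjusted p = 0.0112). As TPM the mean change of that pair within mice had the opposite sign, -0.24 against 0.24 as log2 CPM, so its direction depends on the scaling. Ccl9 fell once more from Day 17 to Day 24 in non-responders, by 0.29 ± 0.09 on the log2 scale (adjusted p = 0.0178), with -0.31 ± 0.11 in the 3-digit series (adjusted p = 0.0349) and -0.18 ± 0.18 in the 4-digit series (adjusted p = 0.542). In responders it ended below Day 4 (log2 fold change -0.36 ± 0.12, adjusted p = 0.0295), and neither series alone was called (-0.74 ± 0.26 and -0.25 ± 0.12, adjusted p = 0.159 and 0.244). Leaving out 1 responder in turn took that adjusted p to between 0.0507 and 0.0957, at log2 fold changes of -0.31 to -0.34, for mice 12_D4_311, 13_D4_315, 14_D4_322, 2_D4_7202, 4_D4_7206 and 6_D4_7210.

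Ccl6, the neighbour of Ccl9 and also a myeloid ligand of Ccr1, followed with a smaller change. In non-responders its log2 CPM was 3.76, 5.04 and 5.99 on Day 4 and 4.89, 5.56 and 6.14 on Day 9, higher in 26 of 29 mice. The log2 fold change was 0.45 ± 0.10 (adjusted p = 4.91e-05), and it fell by 0.55 ± 0.10 to Day 17 (adjusted p = 3.34e-06). In the 3-digit series these were 0.45 ± 0.11 and -0.64 ± 0.10, and in the 4-digit series 0.46 ± 0.21 and -0.31 ± 0.21, neither called there. In responders the median went from 5.35 to 5.60 and 12 of 15 mice were higher, and the change was not called.

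Ccl5, a ligand of cytotoxic lymphocytes, did not share the Day 9 rise. Its log2 CPM in non-responders was 2.49, 3.56 and 4.79 on Day 4 and 2.78, 3.37 and 4.05 on Day 9. The blocked fit, in which the mouse is a block, called that change lower by 0.22 ± 0.09 (adjusted p = 0.0341), and the fit without the block did not (-0.24 ± 0.11, adjusted p = 0.0544). It was -0.32 ± 0.10 in the 3-digit series (adjusted p = 0.00652) and 0.09 ± 0.26 in the 4-digit series (adjusted p = 0.865). By Day 24 Ccl5 was lower than on Day 4 by 0.38 ± 0.11 in non-responders (adjusted p = 0.00307, lower in 23 of 29 mice) and by 0.55 ± 0.12 in responders (adjusted p = 0.00157, lower in 12 of 15 mice). Within the series the Day 24 difference was -0.46 ± 0.10 and -0.03 ± 0.27 in non-responders (adjusted p = 1.39e-04 and 0.979) and -0.98 ± 0.27 and -0.37 ± 0.12 in responders (adjusted p = 0.140 and 0.0611), for 3-digit and then 4-digit tags. The size also depends on the scale, since the mean change within mice was -0.36 as log2 CPM and -0.84 as log2(TPM + 0.1) in non-responders, and -0.49 and -0.24 in responders. The list of NK cell markers had a median summed level of 26.8 CPM on Day 4 and 17.5 CPM on Day 24 in non-responders, and of 27.3 and 17.4 CPM in responders. Its part in the fall of Ccl5 was not tested.

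**Figure D2:**
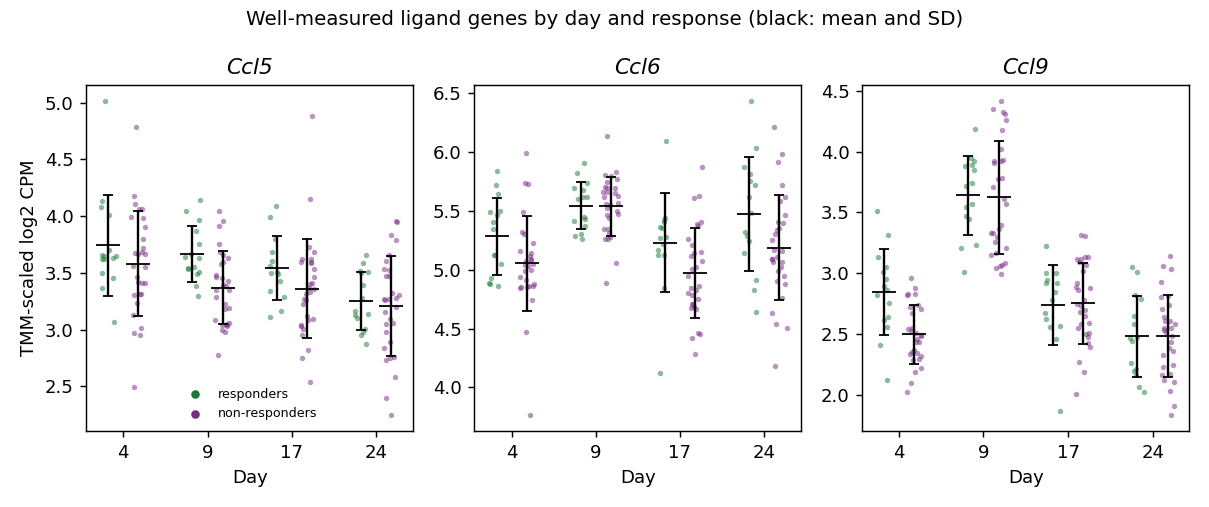
TMM-scaled log2 CPM of Ccl5, Ccl6 and Ccl9 in each library by day, with responders in green, non-responders in purple and the mean and SD in black. Ccl9 peaks on Day 9 in both groups (means 3.64 and 3.62), and Ccl5 falls to means of 3.25 and 3.21 on Day 24.

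Ccl3 and Ccl4, which lie side by side, were low and had their highest values in part of the Day 9 libraries. Ccl3 had 2, 20 and 58 counts in non-responders on Day 4 and 10, 24.5 and 250 on Day 9, and its log2 CPM was -3.67, -1.56 and -0.15 and then -2.10, -1.10 and 1.61. The groups overlapped, and 19 of 29 mice were higher. The log2 fold change was 1.49 ± 0.24 (adjusted p = 5.32e-08), and 1.17 ± 0.23 with the block. It was 1.61 ± 0.26 in the 3-digit series (adjusted p = 1.82e-07) and 0.59 ± 0.40 in the 4-digit series (adjusted p = 0.356), so the call rests on the first. In responders Ccl3 rose by 0.83 ± 0.27 (adjusted p = 0.0142), with 12 of 15 mice higher, but leaving out mouse 13_D4_315 gave 0.60 (adjusted p = 0.0617). Neither series alone was called (1.08 ± 0.57 and 0.64 ± 0.26, adjusted p = 0.224 and 0.0855). From Day 9 to Day 17 it fell by 1.96 ± 0.25 in non-responders (adjusted p = 2.73e-10), lower in 28 of 30 mice. That fall was also a matter of the 3-digit series, with -2.38 ± 0.28 there (adjusted p = 3.43e-11) and -0.16 ± 0.40 in the 4-digit series (adjusted p = 0.913). In responders it fell by 0.92 ± 0.27 (adjusted p = 0.0320), and neither series alone was called (-2.36 ± 0.59 and -0.37 ± 0.27, adjusted p = 0.0622 and 0.483). The pooled call was lost without mouse 12_D4_311, 1_D4_7201 or 8_D4_7226, with log2 fold changes of -0.90, -0.84 and -0.93 (adjusted p of 0.0531 to 0.0687), and without mouse 13_D4_315, where the change was -0.57 (adjusted p = 0.184).

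No test set Ccl4 against Ccl3. In responders Ccl4, unlike Ccl3, was not called from Day 4 to Day 9 (log2 fold change -0.13 ± 0.22, adjusted p = 0.698). In non-responders its log2 CPM was -2.49, -1.51 and -0.43 on Day 4 and -2.87, -1.34 and 0.88 on Day 9. It rose by 0.84 ± 0.20 (adjusted p = 1.96e-04), although only 16 of 29 mice were higher, and then fell by 1.12 ± 0.20 to Day 17 (adjusted p = 4.93e-06). The rise was 0.61 ± 0.19 with the block (adjusted p = 0.00602). It was 0.97 ± 0.22 in the 3-digit series and 0.07 ± 0.35 in the 4-digit series, and the fall was -1.49 ± 0.23 and 0.29 ± 0.35, of which only the 3-digit values were called. In responders the median was -1.19 on Day 4 and -1.61 on Day 9, and 6 of 15 mice were higher. By Day 24 Ccl4 was below Day 4 in both groups, by 0.90 ± 0.23 on the log2 scale in responders (adjusted p = 0.00550, 13 of 15 mice lower) and 0.78 ± 0.22 in non-responders (adjusted p = 0.00205, 26 of 29 mice lower). Within the series this was -1.79 ± 0.56 and -0.64 ± 0.22 in responders (adjusted p = 0.152 and 0.0896) and -0.92 ± 0.25 and -0.31 ± 0.37 in non-responders (adjusted p = 0.00109 and 0.712), for 3-digit and then 4-digit tags, so only the 3-digit non-responders were called. In responders it fell by 0.66 ± 0.23 between Day 17 and Day 24 (adjusted p = 0.0382). This call was lost on leaving out any 1 of 8 of the 15 responders (14_D4_322, 15_D4_327, 1_D4_7201, 4_D4_7206, 5_D4_7208, 7_D4_7221, 10_D4_7228 and 11_D4_7229), with adjusted p of 0.0510 to 0.123.

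Cxcl2, the neutrophil attractant, was near 0 in most libraries and high in a few of Day 9. In non-responders it had 0, 0 and 16 counts on Day 4, with 15 of 29 libraries at 0, and 0, 9.5 and 1691 counts on Day 9, with 5 of 30 at 0. In responders the Day 9 libraries held 0, 4 and 549 counts. At least 100 counts were found in 8 of 30 Day 9 libraries of non-responders and in 1 of 15 of responders, and in no library of another day. All 9 came from mice with 3-digit tags (8 of 23 and 1 of 4), and none of the 18 Day 9 libraries of the 4-digit series reached 100 counts. The fitted log2 fold change in non-responders was 6.51 ± 0.68 from Day 4 to Day 9 (adjusted p = 5.81e-15) and -4.77 ± 0.58 from Day 9 to Day 17 (adjusted p = 5.96e-11). Its size is not a measured one, since 28 of 29 Day 4 libraries and 25 of 30 Day 17 libraries held under 10 counts, and Cxcl2 passed the filter through its Day 9 values. Within the 3-digit series they were 6.63 ± 0.72 and -6.27 ± 0.70, and in the non-responders of the 4-digit series Cxcl2 was left out by the filter.

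Cxcl16, the Cxcr6 ligand, rose on Day 9 in both groups, from a Day 4 level at which all 15 libraries of responders and 20 of 29 of non-responders held under 10 counts. Its log2 CPM in responders was -4.81, -3.22 and -1.95 on Day 4 and -3.09, -1.70 and 0.70 on Day 9, at median counts of 2 and 8. In non-responders it was -4.81, -2.75 and -1.47 and then -3.21, -1.46 and 1.84, at median counts of 7 and 20.5. Cxcl16 was higher on Day 9 in 14 of 15 responders and 27 of 29 non-responders. The log2 fold changes were 2.63 ± 0.38 (6.19-fold, adjusted p = 1.00e-06) and 2.22 ± 0.28 (4.67-fold, adjusted p = 1.72e-11), sizes that rest on those low Day 4 counts. As log2(TPM + 0.1), which understates the change of low genes, the mean change within mice was 0.51 and 0.62. Both series showed the rise, with 3.46 ± 0.55 and 1.73 ± 0.38 in responders and 2.23 ± 0.29 and 1.95 ± 0.42 in non-responders (3-digit and then 4-digit tags), all called.

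After Day 9 the series of tags parted for Cxcl16. In non-responders it fell by 1.45 ± 0.26 to Day 17 (adjusted p = 4.98e-06), with -2.09 ± 0.29 in the 3-digit series (adjusted p = 6.52e-09), where 2 of 23 mice were higher. In the 4-digit series the change was 0.93 ± 0.33 in the other direction (adjusted p = 0.0885), with 6 of 7 mice higher. The 3-digit responders fell as well, by 2.20 ± 0.45 on the log2 scale (adjusted p = 0.0142), and the 4-digit responders changed by 0.41 ± 0.32 (adjusted p = 0.536). In responders together, Day 17 was above Day 4 by 1.90 ± 0.40 (adjusted p = 3.56e-04) and Day 24 by 1.52 ± 0.40 (adjusted p = 0.00679). Only the 4-digit series was called there, in both response groups. In 4-digit responders Day 17 and Day 24 were above Day 4 by 2.14 ± 0.37 and 1.75 ± 0.36 (adjusted p = 4.11e-05 and 0.00175), and in 4-digit non-responders by 2.88 ± 0.39 and 2.19 ± 0.41 (adjusted p = 9.76e-06 and 0.00197). In the 3-digit series these were 1.26 ± 0.60 and 0.82 ± 0.63 in responders (adjusted p = 0.172 and 0.445) and 0.14 ± 0.33 and 0.13 ± 0.33 in non-responders (adjusted p = 0.754 and 0.773). In non-responders together Day 17 was above Day 4 by 0.77 ± 0.30 (adjusted p = 0.0278). That call was lost without mouse 36_D4_303, 30_D4_7218 or 17_D4_7220 (adjusted p of 0.0527 to 0.0724), and the mean change within mice was 0.11 in 22 mice with 3-digit tags and 2.29 in 7 with 4-digit tags. The summed keratins had medians in non-responders of 1.92, 5.94 and 0.373 CPM on Days 4, 9 and 17 in the 3-digit series and of 0, 0.998 and 2.23 CPM in the 4-digit series, and their part in the course of Cxcl16 was not tested.

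Cxcl10, an interferon-induced ligand of Cxcr3, rose in non-responders. Its log2 CPM there was -3.32, -2.21 and -1.28 on Day 4 and -2.99, -1.61 and 0.47 on Day 9, higher in 22 of 29 mice. The log2 fold change was 0.79 ± 0.19 (adjusted p = 1.62e-04), followed by falls of 0.73 ± 0.19 to Day 17 (adjusted p = 0.00160) and 0.65 ± 0.21 from Day 17 to Day 24 (adjusted p = 0.0186). Day 24 was below Day 4 by 0.58 ± 0.21 on the log2 scale (adjusted p = 0.0153). In the 3-digit series the Day 9 rise was 0.92 ± 0.21 (adjusted p = 1.50e-04) and in the 4-digit series 0.49 ± 0.33 (adjusted p = 0.352). The fall to Day 17 was -0.86 ± 0.21 and -0.39 ± 0.34 (adjusted p = 9.79e-04 and 0.593), and that from Day 17 to Day 24 was called in neither series (-0.61 ± 0.24 and -0.71 ± 0.39, adjusted p = 0.0703 and 0.233). The Day 24 difference from Day 4 was -0.55 ± 0.24 and -0.60 ± 0.38 (adjusted p = 0.0422 and 0.401). In responders the medians were -2.07 and -2.09 and the means -2.27 and -1.94, with 9 of 15 mice higher. The log2 fold change of 0.46 ± 0.28 there was not called (adjusted p = 0.223), and it did not differ detectably from that of non-responders (interaction -0.34 ± 0.34, 95% interval -1.02 to 0.33, adjusted p = 1).

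**Figure D3:**
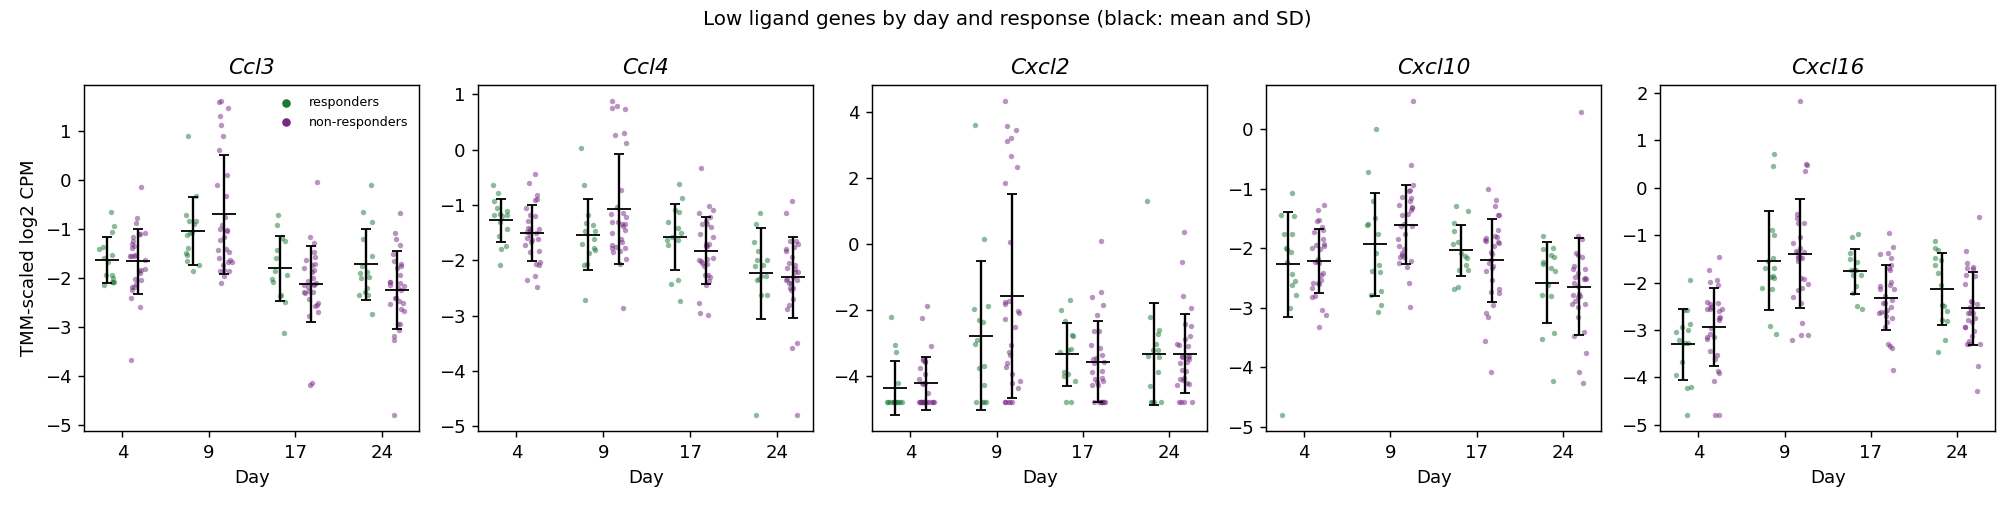
TMM-scaled log2 CPM of Ccl3, Ccl4, Cxcl2, Cxcl10 and Cxcl16 in each library by day, with responders in green, non-responders in purple and the mean and SD in black. The high values of Ccl3, Ccl4 and Cxcl2 are in part of the Day 9 libraries, and values of -4.81 are libraries with no count.

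The later comparisons are given as counts. From Day 4 to Day 17, 1 of 7 members was called higher in responders (Cxcl16, against 12.2% of all genes) and 2 of 8 in non-responders (Cxcl16 and Ccl9, against 21.9%). Cxcl16 did not pass the filter on the Day 4 libraries alone, so its part in these counts was set in part by the filter. Of the 6 members that also passed on Day 4 alone, 0 were called higher in responders and 1 in non-responders. From Day 4 to Day 24, responders had 1 member higher (Cxcl16, against 7.44%) and 3 lower (Ccl4, Ccl5 and Ccl9, against 9.94%), and non-responders had 3 lower (Ccl4, Ccl5 and Cxcl10, against 24.8%). Of the same 6 members, 0 were called higher and 3 lower in each response group. With the mouse as a block, 5 members were called in non-responders from Day 4 to Day 24, adding Ccl3 at -0.71 ± 0.25 (adjusted p = 0.0169) and Cxcl2 at 1.94 ± 0.84 (adjusted p = 0.0482). Cxcl2 passed the filter through its Day 9 values, so its part in that count was set in part by the filter. It held under 10 counts in 28 of 29 libraries on Day 4 and 27 of 30 on Day 24. From Day 17 to Day 24, 1 member was called lower in responders (Ccl4, against 9.31%) and 2 in non-responders (Ccl9 and Cxcl10, against 11.3%).

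**Figure D4:**
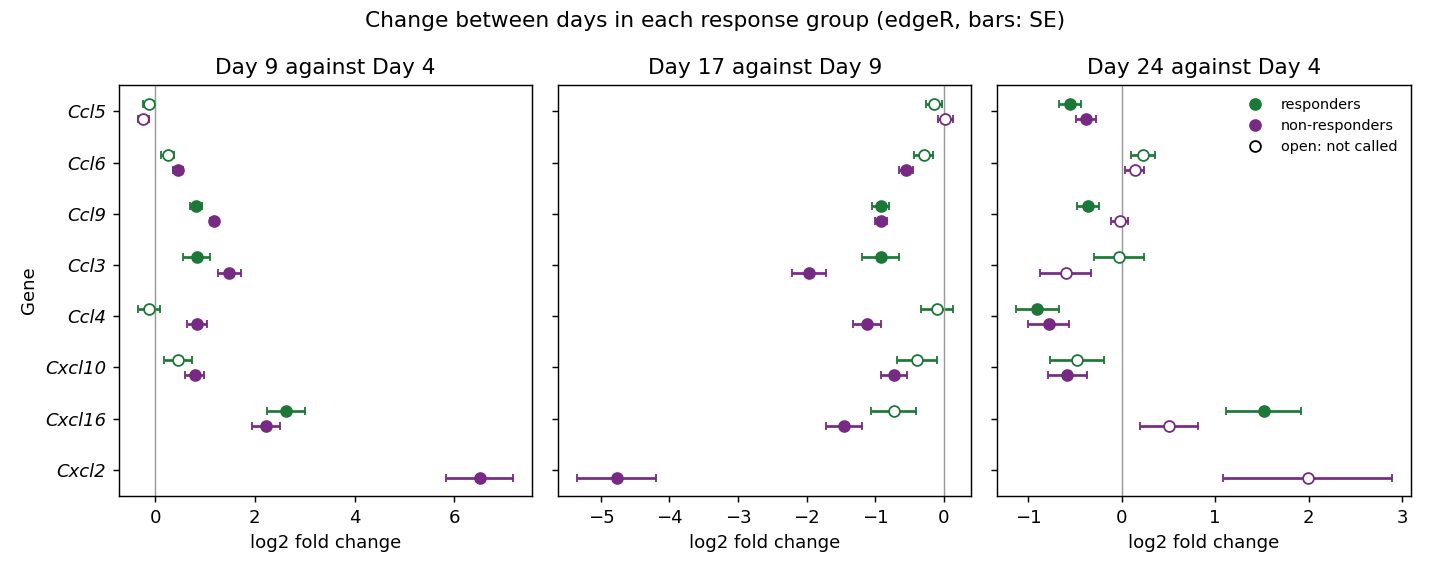
Log2 fold change of 8 ligand genes between pairs of days in responders (green) and non-responders (purple), with the SE as bars and open points where the adjusted p was above 0.05. From Day 4 to Day 9 the fitted change of Cxcl2 in non-responders is 6.51 and that of Cxcl16 is above 2 in both groups, sizes that rest on Day 4 counts mostly under 10, while Ccl5 is called in neither.

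Markers of several cell types differed between the days on which these genes changed. The summed level of 7 classical monocyte markers had medians of 123 CPM on Day 4, 250 on Day 9 and 165 on Day 17 in non-responders, and of 174, 256 and 158 CPM in responders. That of 7 neutrophil markers had medians of 210, 369 and 283 CPM in non-responders and 255, 413 and 337 CPM in responders. Every gene of both lists except Ly6g was counted in all libraries. Lymphocyte lists went the other way from Day 4 to Day 9. The T cell markers went from 80.3 to 57.1 CPM in non-responders and from 84 to 57.7 CPM in responders, and the B cell markers from 395 to 295 and from 400 to 280 CPM. The 4 epithelial keratins Krt4, Krt5, Krt13 and Krt14 had medians of 1.18, 4.05 and 0.478 CPM in non-responders (highest library 8.29, 105 and 4.6) and 0, 1.20 and 1.63 CPM in responders (highest 7.15, 35 and 7.24). In responders the pooled medians hide the series, since the 3-digit mice had 12.4 CPM on Day 9 (4.92 to 35) and 0.468 CPM on Day 17 (0.263 to 0.536), and the 4-digit mice 0.933 and 2.61 CPM. On Day 9 the keratins ranged up to 105 CPM in the 3-digit series and up to 3.52 CPM in the 4-digit series. On Day 17 the order of the series was the other way round, with medians in non-responders of 0.373 CPM in the 3-digit and 2.23 CPM in the 4-digit series. The 3 fibroblast genes Col1a1, Col3a1 and Dcn reached 110 CPM on Day 9 in the 3-digit series of non-responders and 18.3 CPM in the 4-digit series, and on Day 17 they had medians of 1.06 and 13.6 CPM there (highest 2.79 and 45.2). The library with the most Cxcl2, 68_D9_316, had 37.6 CPM of keratins and 43.2 CPM of fibroblast genes. The part of these cells in the changes of the ligand genes was not tested.

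The response groups were set against each other on each day, and a gene was called where its fold reached 1.5 and its adjusted p did not exceed 0.05. No member was called on any day by edgeR, with 6, 8, 7 and 6 members tested on Days 4, 9, 17 and 24, where 4.21%, 3.65%, 0.264% and 0.297% of all genes were called. DESeq2 called no member on any day, and 4.45%, 3.73%, 0.59% and 0.315% of all genes. With edgeR, 1, 2, 2 and 2 members had an unadjusted p under 0.05, as did 20.7%, 25.1%, 20.6% and 24.3% of all genes. On adjusted p alone, 1 member passed on Day 4 (7.42% of all genes) and 1 on Day 9 (13.4%). Without responder 13_D4_315, 1 member was called on Day 9, Cxcl2 at -3.78 ± 1.09 (adjusted p = 0.0112). Ccl9 was higher in responders on Day 4 by 0.38 ± 0.09 (1.3-fold, adjusted p = 0.00459), and on Day 9 the difference was -0.01 ± 0.13. Within the series the Day 4 difference was 0.32 ± 0.14 and 0.45 ± 0.16 (adjusted p = 0.289 and 0.165). Ccl5 was higher in responders on Day 9 by 0.28 ± 0.09 (1.21-fold, adjusted p = 0.0347), and by 0.07 ± 0.16 in the 3-digit and 0.55 ± 0.12 in the 4-digit series (adjusted p = 0.938 and 0.163).

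Among the low members, no difference was called. As responders minus non-responders on the log2 scale, Ccl4 differed on Day 9 by -0.73 ± 0.34 (95% interval -1.40 to -0.07, adjusted p = 0.159) and Ccl3 by -0.72 ± 0.39 (-1.49 to 0.06, adjusted p = 0.259). Within the series the differences of Ccl4 were -0.59 ± 0.64 and 0.06 ± 0.27, and those of Ccl3 -0.40 ± 0.72 and 0.29 ± 0.26, so the pooled values were not seen in the 4-digit series. Cxcl2 differed by -1.34 ± 0.89 on Day 9 (adjusted p = 0.371), and by 0.02 ± 1.31 within the 3-digit series. Cxcl16 differed by 0.52 ± 0.23 on Day 17 (0.07 to 0.96, adjusted p = 0.182), and by 0.59 ± 0.31 and -0.24 ± 0.23 within the 3-digit and 4-digit series. On Day 24, Ccl3 differed by 0.50 ± 0.24 (adjusted p = 0.196). Of the abundant members, Ccl6 differed by 0.26 ± 0.12 on Day 17 and 0.29 ± 0.14 on Day 24 (adjusted p = 0.213 and 0.191). Within the series these were -0.02 ± 0.19 and 0.19 ± 0.17 on Day 17 and -0.02 ± 0.20 and 0.73 ± 0.23 on Day 24 (3-digit and then 4-digit tags), so neither was seen in the 3-digit series.

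The difference between response groups depended on the scale for the abundant members. The median of Ccl6 on Day 9 was 12 TPM in responders and 21.8 TPM in non-responders, while its median log2 CPM was 5.60 and 5.56. Ccl5 had 16.4 and 19.9 TPM, with 3.63 and 3.37 as log2 CPM, so it was lower in responders on one scale and higher on the other. A two-sided rank sum test on TPM with both thresholds called Ccl3 and Ccl5 lower in responders on Day 4 (adjusted p = 0.0248 and 0.0261). On Day 9 it called Ccl3, Ccl4, Ccl6 and Cxcl16 lower (adjusted p = 0.00972, 0.00266, 0.00237 and 0.0447). That test called 72.1% of all genes lower in responders on Day 4 and 75.4% on Day 9, with a median log2 ratio over all genes of -0.70 on both days, so most genes were called lower on that scale. The log2 ratios of Ccl3 and Ccl4 on Day 9 were -1.40 and -1.45, and those of Ccl6 and Cxcl16 -0.69 and -0.67. Ccl9 on Day 4, higher in responders as log2 CPM, had a log2 ratio of mean TPM of -0.08. TPM counts haemoglobin in its total, and the median haemoglobin share was 83.8% in responders and 79.4% in non-responders on Day 4, and 83.1% and 78.5% on Day 9. The part of haemoglobin in the all-gene ratio of -0.70 was not tested.

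Whether the change from Day 4 differed between responders and non-responders was tested over all libraries as an interaction, for 9 members (all but Ccl2). No member was called by edgeR at Day 9, Day 17 or Day 24, where 0%, 0.351% and 3.76% of 13688 genes were called. At Day 9, edgeR had 719 genes at an unadjusted p under 0.05 and DESeq2 called 0. Unadjusted p was under 0.05 for 2, 2 and 1 members on the 3 days, and for 5.25%, 10.2% and 18.4% of all genes. DESeq2 called no member, and 0%, 0.647% and 6.68% of all genes. As responders minus non-responders, the change of Ccl4 to Day 9 differed by -0.98 ± 0.34 (95% interval -1.64 to -0.32, adjusted p = 0.862), and that of Ccl9 by -0.39 ± 0.15 (-0.69 to -0.08, adjusted p = 0.862). In the 3-digit series the value for Ccl4 was -1.01 ± 0.61 and in the 4-digit series -0.30 ± 0.40, and for Ccl9 -0.35 ± 0.28 and -0.61 ± 0.22. For Ccl5 the difference was 0.11 ± 0.18 (-0.24 to 0.46) and for Ccl6 -0.22 ± 0.17 (-0.54 to 0.11), and differences inside those intervals cannot be told from 0 here. That of Cxcl2 could not be bounded closely (-4.81 to 2.81).

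Of 30 other chemokine ligands in the table, 5 or 6 passed the filter in each fit within a day or response group. On Day 9 against Day 4 in non-responders, 1 of 6 was called higher and 2 lower, against 23.3% and 27.5% of all genes, so these numbers lie near the background. Cxcl5, another ligand of Cxcr2, rose by 2.27 ± 0.33 (adjusted p = 2.63e-09) and fell by 2.30 ± 0.33 to Day 17 (adjusted p = 1.11e-08). It had 1, 14 and 34 counts on Day 4 and 3, 21.5 and 891 on Day 9, and the 3-digit series gave 2.52 ± 0.36 and -2.82 ± 0.37 (adjusted p = 5.36e-09 and 1.08e-09). In the 4-digit series both had the opposite sign, with -0.53 ± 0.35 (adjusted p = 0.328) and 1.33 ± 0.34 (adjusted p = 0.0194). The platelet chemokines Pf4 and Ppbp were lower on Day 9 by 0.55 ± 0.15 and 0.42 ± 0.15 on the log2 scale (adjusted p = 9.82e-04 and 0.0137). In responders Pf4 was the 1 called, lower by 0.65 ± 0.21 (adjusted p = 0.0151). On Day 24 against Day 4, 3 of 5 other ligands were called lower in responders, against 9.94% of all genes. In non-responders 1 of 6 was called higher and 3 lower, against 23.8% and 24.8%. These changes are not given by ear tag series here. Pf4 and Ppbp were also below Day 4 on Day 24, by 0.87 ± 0.21 and 0.75 ± 0.23 on the log2 scale in responders (adjusted p = 0.00411 and 0.0176) and 0.78 ± 0.15 and 0.69 ± 0.15 in non-responders (adjusted p = 8.16e-06 and 9.37e-05). The summed level of 5 other platelet genes had medians of 199 and 284 CPM on Days 4 and 24 in responders (148 to 960 and 126 to 469). In non-responders the medians were 200 and 169 CPM (109 to 920 and 82.7 to 938). The part of platelets in the falls of Pf4 and Ppbp was not tested. Ccl27a was higher on Day 24 than on Day 4 in non-responders, by 0.63 ± 0.16 (adjusted p = 7.40e-04). By Day 24, Xcl1, a ligand made by lymphocytes, was lower than on Day 4 by 1.09 ± 0.30 in responders and 0.59 ± 0.18 in non-responders (adjusted p = 0.0103 and 0.00380).

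Of 24 chemokine receptors, 18 were tested, and on Day 9 against Day 4 8 were called higher and 5 lower in non-responders, and 6 higher and 3 lower in responders. Over all genes, 23.3% were called higher and 27.5% lower in non-responders, and 13.5% and 14.2% in responders, so the numbers called lower lie near the background. Ccr2, the receptor of Ccl2, rose by 1.55 ± 0.10 in non-responders (adjusted p = 3.07e-26) and 1.24 ± 0.17 in responders (adjusted p = 2.85e-07). Ccr1, which binds Ccl3, Ccl5, Ccl6 and Ccl9, rose by 1.10 ± 0.12 and 0.59 ± 0.16 (adjusted p = 1.12e-14 and 0.00404). Cxcr2 rose in non-responders by 0.84 ± 0.12 (adjusted p = 2.44e-09), and its change in responders was 0.36 ± 0.17 (adjusted p = 0.106). Cxcr6 fell in non-responders by 0.36 ± 0.07 on the log2 scale (adjusted p = 2.15e-05), with 0.22 ± 0.12 in responders (adjusted p = 0.143). Cxcr3 was not called in either group, at -0.14 ± 0.07 and -0.07 ± 0.12. Ccr7, the lymph node homing receptor, fell by 0.52 ± 0.05 and 0.51 ± 0.07 (adjusted p = 1.65e-17 and 4.47e-07). Cxcr5, a receptor of B cells, fell by 0.49 ± 0.06 and 0.53 ± 0.09 (adjusted p = 1.03e-12 and 4.76e-06), and Ccr9 fell in responders by 0.48 ± 0.08 (adjusted p = 6.35e-06). Between responders and non-responders, Ackr1 was called higher in responders on Day 4 (1.17 ± 0.25, adjusted p = 0.00314) and Day 9 (1.07 ± 0.17, adjusted p = 2.55e-05), and Ccr3 on Day 24 (0.81 ± 0.24, adjusted p = 0.0311). For Ackr1 the series gave 1.57 ± 0.41 and 0.78 ± 0.36 on Day 4 (adjusted p = 0.0899 and 0.194) and 0.99 ± 0.27 and 0.69 ± 0.23 on Day 9 (adjusted p = 0.0284 and 0.313), for 3-digit and then 4-digit tags, and for Ccr3 0.12 ± 0.40 and 1.77 ± 0.36 (adjusted p = 0.952 and 0.137). Ackr1 is also made by red cells, and 4 red cell genes had median summed levels of 736000 against 445000 TMM-scaled CPM on Day 4 and 750000 against 444000 on Day 9, in responders and non-responders. Their part in the difference of Ackr1 was not tested. Cxcr6 and Cxcr3 differed by 0.55 ± 0.10 and 0.36 ± 0.09 on Day 9 (adjusted p = 7.78e-05 and 0.00462), under the fold threshold, and were called on adjusted p in neither series (0.25 ± 0.14 and 0.49 ± 0.17 for Cxcr6, 0.15 ± 0.14 and 0.31 ± 0.15 for Cxcr3). Cxcr3 and Cxcr2 were also higher in responders under that threshold on Day 4, before treatment, by 0.31 ± 0.10 and 0.43 ± 0.12 (adjusted p = 0.0342 and 0.0233).

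Genes most like each ligand were ranked by Pearson correlation over 178 libraries after the mean of each day and response group was taken off, among 12174 named genes. The 4 libraries of a mouse share the animal, and libraries share depth and makeup, so these values describe the libraries only. The ear tag series was not taken off, so differences between the series enter these values, to an extent that was not tested. Ccl5 was most like Nkg7 (0.84), Gzma (0.81) and Il2rb (0.74), genes of cytotoxic lymphocytes. Ccl6 was most like Retnlg (0.84), Pla2g7 (0.78) and Alox5 (0.78), and Ccl9 most like Psap (0.78), Lgals3 (0.77) and Mpeg1 (0.76), genes of myeloid cells. With each other, Ccl6 and Ccl9 had 0.51. Ccl9 had 0.75 with the summed classical monocyte markers, Ccl6 0.52 with the neutrophil markers and Ccl5 0.76 with the NK cell markers.

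The low ligands were most like other genes. Ccl3 was most like Cxcl2 (0.61), Inhba (0.58) and Ccl4 (0.57), and Ccl4 most like Cxcl2 (0.59), Ccl3 (0.57) and Egr1 (0.52). Cxcl2 was most like Cxcl3 (0.80), Aldh1a3 (0.75) and Inhba (0.73). Cxcl16 was most like the epithelial keratin gene Krt7 (0.71), Gsto1 (0.71) and S100a14 (0.70), and had 0.69 with the summed keratins and 0.07 with the NK cell markers. Cxcl16 and the keratins both differed by ear tag series, as in responders on Day 9. Mean log2 CPM of Cxcl16 was -0.18 in the 3-digit and -2.03 in the 4-digit series there. Median summed keratins were 12.4 and 0.933 CPM. Cxcl2 had 0.53 with the keratins and 0.51 with the fibroblast genes. Cxcl10 was most like Atf3 (0.52), Cxcl9 (0.45) and Prdx1 (0.44), and Cxcl9, at counts near 0, had 0.45 with Cxcl10 and 0.38 with Sar1a. Without library 68_D9_316, Cxcl2 had 0.58 with Ccl3 and 0.57 with Ccl4.

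**Figure D5:**
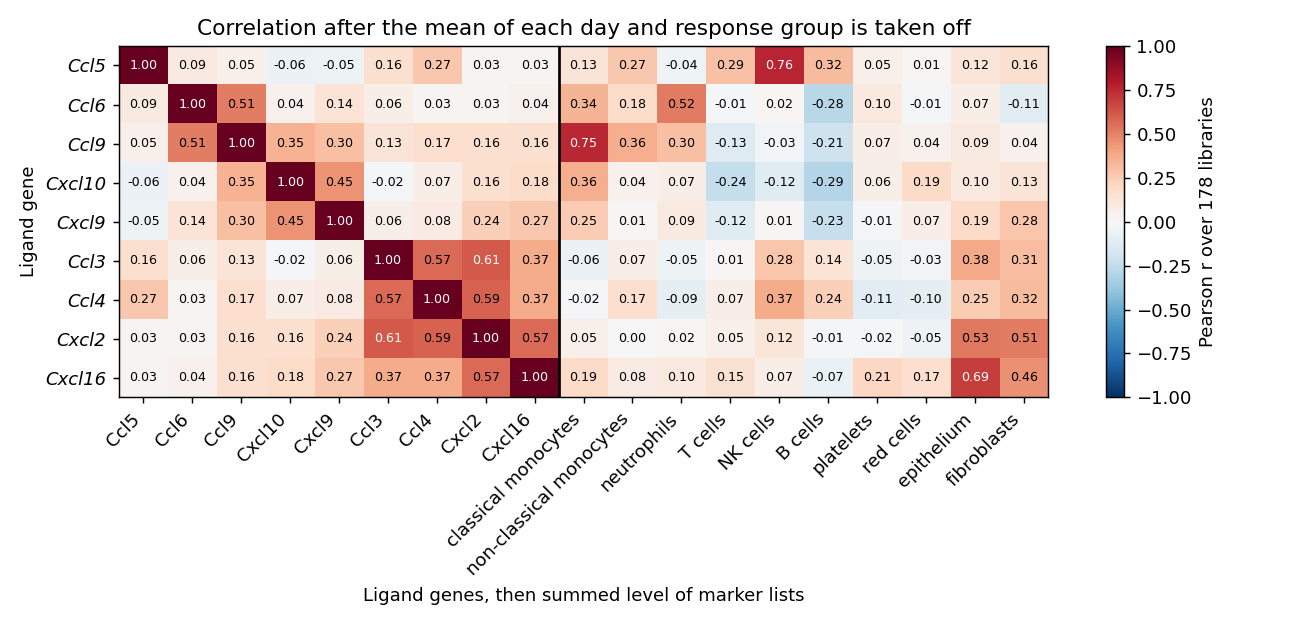
Pearson correlation over 178 libraries between 9 ligand genes, and between each of them and the summed level of 10 marker lists, after the mean of each day and response group was taken off. The ear tag series was not taken off. Ccl5 is highest with NK cell markers (0.76), Ccl9 with classical monocytes (0.75) and Cxcl16 with epithelium (0.69), and Ccl3, Ccl4 and Cxcl2 have 0.57 to 0.61 with each other.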

How the data were processed

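Whole-blood RNA was sequenced by the authors after SMARTer mRNA-Seq library preparation. The submitters' processing notes name STAR and mm10. The counting tool, its annotation and its use of strand are not given in the sources used here. The authors deposited estimated counts per gene, which were rounded before every test, and TPM per gene symbol, scaled to the same sum in each library with haemoglobin included. All 55450 gene identifiers match GENCODE M21. No 2 libraries were identical.

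Tests used edgeR 4.0.16 in R 4.3.3 (filterByExpr, TMM, glmQLFit, glmQLFTest, Benjamini-Hochberg over all genes tested). Comparisons were of the response groups on each day, of the days inside each response group (1 fit for all 4 days), and of how far the change from Day 4 differed between groups, as an interaction. A gene too low to measure is one that filterByExpr left out. Errors are SE, and 95% intervals take a normal distribution. Scripts were tested on simulated data. Alternatives used DESeq2 1.42.0, other count filters (at least 1 count in any library, at least 10 in every library), thresholds, removal of haemoglobin genes, single libraries or mice, the ear tag series, prior counts, TPM and a replicate block. The mouse pairs the libraries by its ear tag; deviations of libraries of the same mouse correlated with means of -0.05 to 0.097 over pairs of days.

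Members and lists were chosen with earlier results of these data known. All 10 members are named, with up to 4 called genes of smallest p per comparison among other ligands and receptors, the receptors Ccr1, Ccr2, Cxcr2, Cxcr3 and Cxcr6, and the 3 genes most like each member, leaving out Gm and Rik genes. Some genes that this rule selects are not reported here. Mice were separate animals, so the p-values measure the spread between mice, except that the unblocked fits treat the libraries of a mouse as independent.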

Additional observations from a re-analysis of the deposited data

How the results depend on the processing

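Of 32 called changes over time, all kept their call with DESeq2, without haemoglobin genes, with library 104_D17_7203 as a responder and with the replicate block, as did the 21 fitted without library 166_D24_7224 and the 19 fitted without the library with most Cxcl2 counts (an alternative chosen after seeing the data, as were the ear tag series and leaving out mice for changes over time). Of the 32, 6 kept their call under every alternative in which they were fitted, leaving out a mouse aside, and 2 of these are the changes of Cxcl2, which was not fitted in mice with 4-digit tags: 4 were lost with genes of at least 1 count in any library, 8 with a fold of at least 1.5 and 12 in mice with 3-digit tags, and of 30 fitted in mice with 4-digit tags 19 were lost and 2 had the opposite sign. Counts of members called moved by over 1.5 times as follows, and the cause was not tested unless given. Between response groups, the rank sum test on TPM called 2 on Day 4 and 4 on Day 9, and adjusted p alone 1 on each, against 0. With genes of at least 1 count in any library, 6 instead of 3 were called in responders from Day 4 to Day 9 and 0 instead of 1 from Day 17 to Day 24, with all 10 members tested. With at least 10 counts in every library only 3 members were tested, and in responders 1, 0, 2, 1 and 0 were called (Day 9, 17 and 24 against Day 4, Day 17 against Day 9, Day 24 against Day 17) and in non-responders 2, 1, 1, 2 and 1. In the same order, mice with 3-digit tags gave 1, 0, 0, 1 and 0 in responders, from only 4 mice. Mice with 4-digit tags gave 1 for Day 24 against Day 4, 1 for Day 17 against Day 9 and 0 for Day 24 against Day 17 in responders, and 2, 1, 1, 1 and 0 in non-responders, from 7 mice. With a fold of at least 1.5, 2 were called in responders for Day 24 against Day 4, and 1 each in non-responders for Day 17 and Day 24 against Day 4 and for Day 24 against Day 17. For Day 24 against Day 4 in non-responders, DESeq2 and the replicate block each called 5 in place of 3. Both counts held Cxcl2, which passed the filter through its Day 9 values. For Day 17 against Day 9 in non-responders, Cxcl16 (0.93) and Ccl4 (0.29) had the opposite sign in mice with 4-digit tags.

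Leaving out 1 mouse in turn gave, for Day 9, 17 and 24 against Day 4, Day 17 against Day 9 and Day 24 against Day 17, 2 to 3, 1 to 1, 3 to 4, 1 to 2 and 0 to 1 called in responders, and 6 to 8, 1 to 3, 3 to 5, 6 to 7 and 2 to 3 in non-responders. Between response groups it gave 0 to 0 on Days 4, 17 and 24 and 0 to 1 on Day 9. The number of member and group pairs with a mean rise from Day 4 to Day 9 did not move with the prior count or TPM. Cxcl2 passed the filter in 25 of 30 of the fits of non-responders that left out a mouse. Low counts limit Ccl2, Cxcl2 and Cxcl9, and responders in the 3-digit series number 4.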
